A study of Homo sapiens with 4 samples.

Results

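A set of 10 genes of mucus and airway secretion, 6 mucins and 4 smaller secreted proteins, were followed by RNA sequencing in NCI-H1048, a human cell line long established from a small cell lung cancer, of the tuft cell-like kind. The members were chosen by name, with earlier results of these data known. They are MUC1, MUC4, MUC16, MUC20, MUC5AC, MUC5B, AGR2, TFF3, LCN2 and WFDC2, 10 of the 35979 gene symbols in the deposited tables. There was 1 library of cells with a guide RNA (gRNA) to POU2F3, 2 of cells with different gRNAs to COLCA2, called guide 1 and guide 2 here, and 1 with a non-targeting gRNA, called the control here. The labels call these cells POU2F3 knockout, COLCA2 knockout and wild type, and name no further treatment or time point. All 4 libraries come from 1 cell line, and nothing in the labels says whether cells were pooled or cloned after targeting. POU2F3 is the transcription factor that specifies tuft cells, rare chemosensory cells of the airway and gut lining, and COLCA2 is a co-activator that works with it.

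Mucins are long glycoproteins with heavily O-glycosylated repeats. The gel-forming MUC5AC and MUC5B are secreted by goblet, club and gland cells and make the airway's mucus, whereas MUC1, MUC4, MUC16 and MUC20 are anchored in the cell membrane and form the layer close to the cell surface. AGR2 is a protein disulfide isomerase of the endoplasmic reticulum that helps mucins fold, TFF3 is a trefoil peptide secreted with them, LCN2 binds iron-carrying siderophores, and WFDC2 (HE4) is a small secreted protein with the same fold as the protease inhibitors SLPI and elafin.

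The reads assigned to genes numbered 21587741 to 29632382 per library. The targeted genes were checked first: the normalized count of POU2F3 was 14602 in the control, 1449 with POU2F3 gRNA and 3677 and 2351 with COLCA2 guides 1 and 2, and that of COLCA2 was 5585, 1393, 3119 and 3541 in the same order. C11orf53, another co-activator of POU2F3, had 1853, 195, 554 and 499. RNA levels do not show whether the protein was lost. A normalized count is the number of reads of a gene divided by 1 factor per library. Ratios are log2 differences of the normalized count + 1, which understates the change of low genes, and a gene is called higher or lower when it differed at least 2-fold. For COLCA2 both guides had to pass. POU2F3 gRNA and non-targeting gRNA have 1 library each, so the 2-fold calls have no replicate check and no test, and the SD between the COLCA2 guides (n = 2) is the only measure of spread within a group. edgeR's test, given further on as an alternative, takes its spread from those guides alone. Below, called means at least 2-fold unless edgeR is named. All ratios to the control share that 1 library. Intervals of ratios are 95% exact (Clopper-Pearson) intervals from the reads and cover counting error only.

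In the libraries with a targeting guide, the membrane mucin MUC1, the mucin-folding enzyme AGR2, the siderophore binder LCN2, WFDC2 and, at low counts, the gel-forming mucin MUC5B were higher than in the control. MUC16 was also higher with both COLCA2 guides. MUC20 was below the control level in the 3 libraries and MUC4 was not called. MUC5AC and TFF3 had few reads everywhere. Of the 10 members, 8 had a mean normalized count of at least 20 over the 4 libraries, the expression minimum. With POU2F3 gRNA 5 of the 8 were called higher and 0 lower, where 6.73% of the 14940 genes past the minimum were called higher and 3.05% lower. With both COLCA2 guides 6 of the 8 were called higher and 0 lower, against 5.79% and 2.02% of all genes. The 5 called with POU2F3 gRNA were also called with both COLCA2 guides, and 4.89% of all genes were called higher and 1.5% lower in the 3 targeting libraries. Each COLCA2 guide alone gave the same 6 higher members, against 6.44% of all genes with guide 1 and 7.25% with guide 2. Guide 2 alone also gave 1 lower member, MUC20, against 3.64% of all genes, and guide 1 gave 0, against 3.19%. These counts describe the members and do not support more, because MUC5B, MUC16, AGR2 and LCN2 passed the minimum only through the libraries in which they were high. The members were also chosen with earlier results of these data known, so these counts and the medians that follow are descriptions. Over all 10 members, whatever their level, the median log2 ratio was 1.20 with POU2F3 gRNA and 1.63 for COLCA2 (mean of the guides), beside -0.0037 and -0.0086 over all genes past the minimum.

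**Figure D1:**
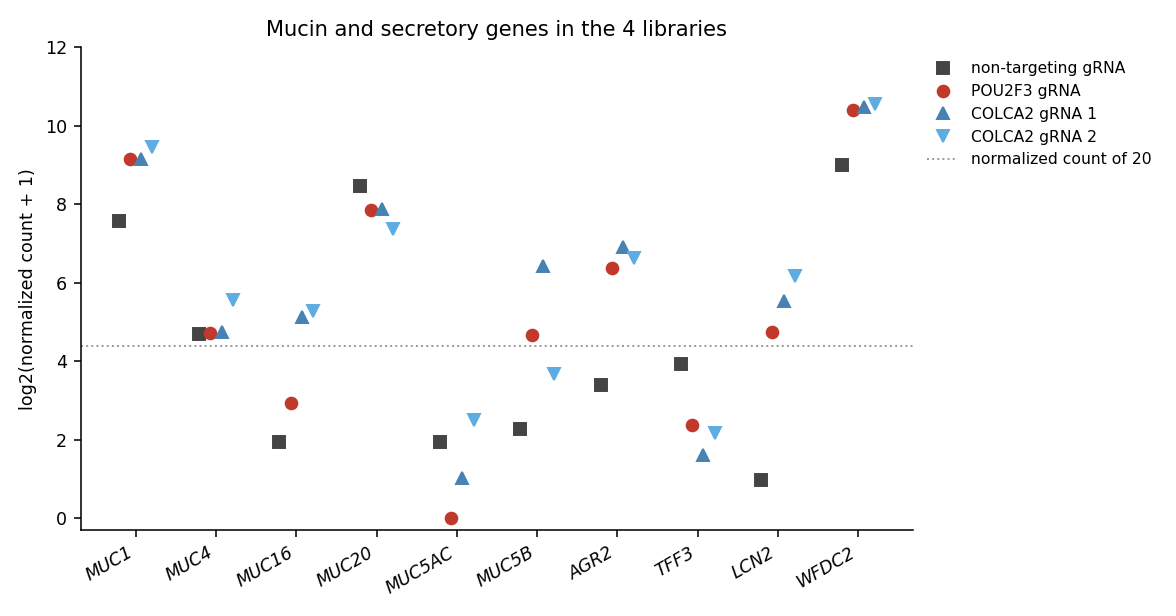
Log2(normalized count + 1) of each of the 10 genes in each of the 4 libraries, 1 point per library; the dotted line marks a normalized count of 20. MUC1, AGR2, LCN2 and WFDC2 sit above the non-targeting square in all 3 targeting libraries, MUC20 and TFF3 sit below it, and the MUC5B points of the COLCA2 guides lie far apart.

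Among the membrane mucins, MUC1 (ENSG00000185499) lies on chromosome 1 (minus strand), from 155185824 to 155192916 in GRCh38. It stood at a normalized count of 188 in the control, 571 with POU2F3 gRNA and 571 and 701 with COLCA2 guides 1 and 2. The 3 targeting libraries were close to one another and all above the control. The ratio to the control was 3.03 (95% interval 2.59 to 3.57) with POU2F3 gRNA, and the log2 ratio averaged over the COLCA2 guides was 1.74 ± 0.21 (SD, n = 2). A gene on the same strand, AL713999.1, overlaps MUC1 by 1449 bp, so reads of the pair may have been split between them. AL713999.1 went the other way, from a normalized count of 59.2 in the control to 6.71 with POU2F3 gRNA and 19.7 and 0 with COLCA2 guides 1 and 2.

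MUC16, the CA-125 antigen (ENSG00000181143), lies on chromosome 19 (minus strand), from 8848844 to 8981342. It had 3 reads in the control, 8 with POU2F3 gRNA and 33 and 32 with COLCA2 guides 1 and 2. The COLCA2 guides thus gave similar values, while the POU2F3 gRNA library lay nearer the control. The ratio to the control was 11.9 (3.75 to 60.9) with COLCA2 guide 1 and 13.1 (4.11 to 67.0) with COLCA2 guide 2. With POU2F3 gRNA it was 2.34 (0.563 to 13.7), a log2 ratio of 0.997 that lay just under the 2-fold threshold. Pseudocount 0.1 and TMM scaling put MUC16 over that threshold, so 6 members were then called with POU2F3 gRNA. MUC16 was the 1 member called in the direct comparison of POU2F3 gRNA with both COLCA2 guides, which leaves the control out and in which 0.924% of all genes were called lower and 0.442% higher. There MUC16 stood at 0.196 (0.0783 to 0.433) of COLCA2 guide 1 and 0.178 (0.0710 to 0.395) of COLCA2 guide 2. edgeR's quasi-likelihood test, run as an alternative on the recovered reads, did not call this difference (adjusted p = 0.181).

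MUC20 and MUC4 are neighbours on chromosome 3. MUC20 (ENSG00000176945) lies on the plus strand at 195720882 to 195741123 and MUC4 (ENSG00000145113) on the minus strand at 195746765 to 195812277, with 5641 bp between them. This stretch of the genome has annotated alternate copies, and the tables hold 6 rows named MUC20 and 8 named MUC4, which were summed. Summed, MUC20 had a normalized count of 352 in the control, 232 with POU2F3 gRNA and 233 and 166 with COLCA2 guides 1 and 2. It was highest in the control, with a ratio of 0.657 (0.560 to 0.770) with POU2F3 gRNA, 0.662 (0.558 to 0.783) with COLCA2 guide 1 and 0.471 (0.385 to 0.573) with COLCA2 guide 2. Of these, the ratio with COLCA2 guide 2 was past 2-fold, so MUC20 was called lower without COLCA2 guide 1 and not with both guides.

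The rows of MUC20 did not move together. The row of the chromosome 3 gene went from a normalized count of 154 in the control to 83.9 with POU2F3 gRNA and 95.4 and 34.1 with COLCA2 guides 1 and 2. The row ENSG00000277753 went from 32.5 to 75.5, 37.3 and 49.4. Another row, ENSG00000274843, had 29.6, 42.0 and 49.8 in the first 3 of these libraries and was listed at 0 with COLCA2 guide 2. Reads of near-identical copies can be split between rows, so the value of a single row is uncertain and the sum was used. MUC20 is also overlapped on its own strand by MUC20-OT1 over 19083 bp, which was not analysed here.

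Summed, MUC4, a mucin that binds the receptor ERBB2, had 26 reads in the control, 30 with POU2F3 gRNA and 25 and 39 with COLCA2 guides 1 and 2. Its row on the reference chromosome was listed at 0 in the 4 libraries and 4 of the 8 rows held the reads. The ratio to the control was 1.01 (0.580 to 1.79) with POU2F3 gRNA, 1.04 (0.578 to 1.88) with COLCA2 guide 1 and 1.85 (1.10 to 3.16) with COLCA2 guide 2. At this depth no difference was detectable with POU2F3 gRNA or COLCA2 guide 1. The row ENSG00000277585 alone had an average log2 ratio of 1.46 with the COLCA2 guides, against 0.46 ± 0.57 (SD, n = 2) for the sum. The row ENSG00000278468, the highest in the control, had -2.22 and -0.64 with guides 1 and 2, so the rows went opposite ways.

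**Figure D2:**
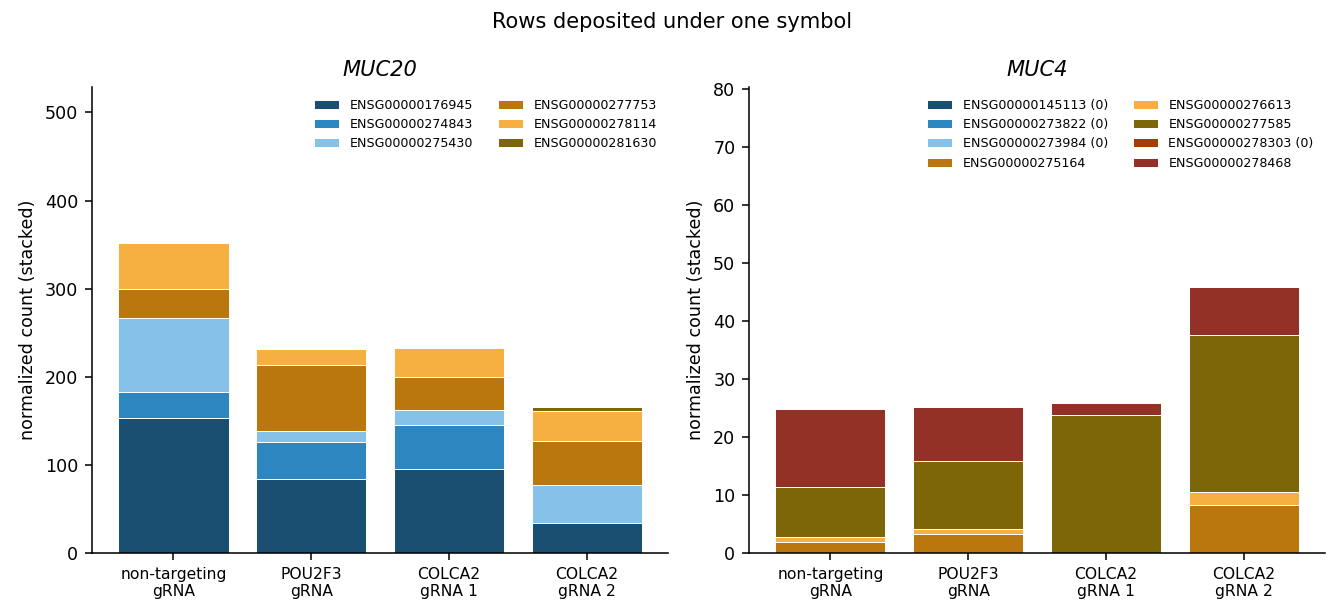
Normalized counts of the rows deposited under MUC20 (left) and MUC4 (right), stacked per library, 1 colour per gene identifier; rows marked (0) hold no reads. The MUC20 total is highest in the control (352), while the share of each row differs between libraries, and the MUC4 reads lie on rows other than that of the reference chromosome, ENSG00000145113.

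The gel-forming mucins MUC5AC and MUC5B lie next to each other on the plus strand of chromosome 11, with 21927 bp between them in GRCh38. MUC5B (ENSG00000117983), the main gel-forming mucin of airway glands, lies at 1223066 to 1262172. It had 4 reads in the control, 29 with POU2F3 gRNA and 82 and 10 with COLCA2 guides 1 and 2. The COLCA2 guides differed from each other more than POU2F3 gRNA did from either: guide 1 stood at 7.23 (3.74 to 15.6) times guide 2. MUC5B was the 1 member past 2-fold between the guides, where 1.05% of all genes were called higher and 1.16% lower. The ratio to the control was 22.3 (8.37 to 83.6) with COLCA2 guide 1 but 3.08 (0.888 to 13.4) with COLCA2 guide 2, and 6.37 (2.24 to 24.9) with POU2F3 gRNA. The log2 ratio averaged over the COLCA2 guides was 2.78 ± 1.95 (SD, n = 2), and edgeR's test did not call MUC5B for COLCA2 (adjusted p = 0.109) or POU2F3 (adjusted p = 0.319). An antisense gene, MUC5B-AS1, overlaps MUC5B by 7416 bp. The strand setting of the counting is unknown, so the MUC5B counts are uncertain to that extent.

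MUC5AC, the mucin of surface goblet cells, had 3 reads in the control, 0 with POU2F3 gRNA and 1 and 4 with COLCA2 guides 1 and 2. A fixed floor of 3 reads, a normalized count of 2.52 in the POU2F3 gRNA library, was set beside its count of 0. No difference was detectable at this depth. The row carries the identifier ENSG00000283158, which is not the one GENCODE gives the gene on chromosome 11 (ENSG00000215182), and the latter was not analysed here.

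Of the secreted partners, AGR2 (ENSG00000106541) lies on chromosome 7 (minus strand), from 16791811 to 16833433. It stood at a normalized count of 9.55 in the control, 82.3 with POU2F3 gRNA and 119 and 98.8 with COLCA2 guides 1 and 2. The targeting libraries stood together, far above the control. The ratio was 8.61 (4.49 to 18.5) with POU2F3 gRNA, and the log2 ratio averaged over the COLCA2 guides was 3.38 ± 0.19 (SD, n = 2). AGR2's close relative AGR3 was listed at 0 in the 4 libraries.

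LCN2 (lipocalin 2, ENSG00000148346) lies on chromosome 9 (plus strand), from 128149071 to 128153455. It had 1 read in the control, 31 with POU2F3 gRNA and 44 and 60 with COLCA2 guides 1 and 2. With 1 control read the size of the ratio is poorly fixed: it was 27.2 (4.54 to 1110) with POU2F3 gRNA, 47.8 (8.14 to 1929) with COLCA2 guide 1 and 73.9 (12.8 to 2967) with COLCA2 guide 2. The lower ends of all 3 intervals lay above 2-fold. Set directly against the guides, the POU2F3 gRNA library held 0.570 (0.348 to 0.924) of the level with COLCA2 guide 1 and 0.369 (0.231 to 0.578) of that with COLCA2 guide 2, and was past 2-fold from the second alone.

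WFDC2 (ENSG00000101443) lies on chromosome 20 (plus strand), from 45469706 to 45481532 and was the most abundant member. It stood at a normalized count of 515 in the control, 1356 with POU2F3 gRNA and 1436 and 1505 with COLCA2 guides 1 and 2. The guides and both targets gave nearly the same level. The ratio was 2.63 (2.39 to 2.91) with POU2F3 gRNA, and the log2 ratio averaged over the COLCA2 guides was 1.51 ± 0.048 (SD, n = 2).

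TFF3 (ENSG00000160180), on chromosome 21 (minus strand), from 42311667 to 42315651, ran the other way at very low counts. It had 15 reads in the control, 5 with POU2F3 gRNA and 2 and 3 with COLCA2 guides 1 and 2. All 3 targeting libraries were below the control, with ratios of 0.293 (0.0833 to 0.848), 0.145 (0.0161 to 0.622) and 0.246 (0.0457 to 0.871). TFF3 was under the expression minimum and is not among the calls. Its relative TFF1 was listed at 0 in the 4 libraries, and TFF2 had 2 to 4 reads.

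**Figure D3:**
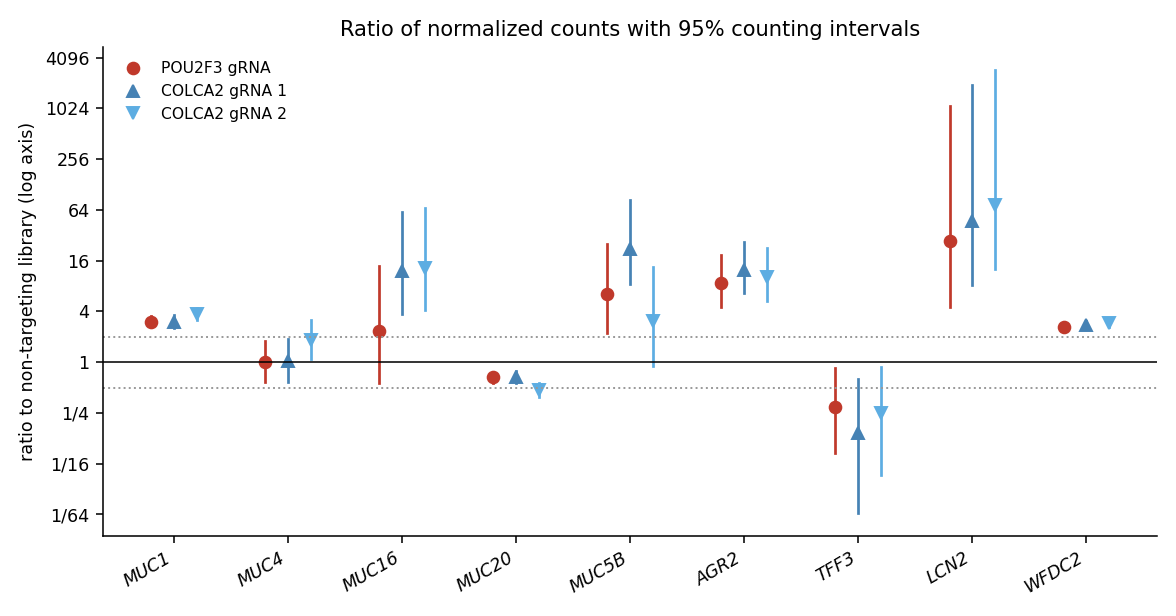
Ratio of each targeting library to the control for 9 of the members (log axis), points with 95% exact intervals for counting error only; dotted lines mark 2-fold. MUC1 and WFDC2 have narrow intervals above 2-fold, LCN2 the widest because the control holds 1 read, and TFF3 and MUC20 lie below 1; MUC5AC is left out because it had at most 4 reads in any library.

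edgeR's test, as an alternative on the reads, called 4 members higher with POU2F3 gRNA (MUC1, AGR2, LCN2 and WFDC2) where it called 8.45% of all genes higher and 3.98% lower. It called 5 higher with COLCA2 gRNA (the same and MUC16) where it called 11.4% higher and 7.51% lower. The adjusted p with POU2F3 gRNA was 0.0036 for MUC1, 0.0082 for AGR2, 0.024 for LCN2 and 0.00089 for WFDC2. With COLCA2 gRNA the adjusted p was 0.0013, 0.0030, 0.0048 and 0.00032 for these and 0.014 for MUC16. It called no member lower, with 0 members lower at an unadjusted p under 0.05 with POU2F3 gRNA and 1 with COLCA2 gRNA. In the direct comparison, where it called 0.107% of genes higher and 0.234% lower, it called 0 members, and 1 was lower at an unadjusted p under 0.05. The test has 1 residual degree of freedom, supplied by guides 1 and 2, and so compares these libraries rather than the conditions. AGR2, LCN2 and MUC16 passed the expression minimum only through the libraries in which they were high. Their edgeR calls and adjusted p are therefore descriptions and do not support more.

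Levels of different genes were compared per kilobase of the longest annotated coding transcript. The longest and the median coding transcript are 4170 and 951 bases for MUC1, and 2842 and 2463 bases for MUC20. They are 1778 and 726.5 bases for AGR2 and 848 and 822 bases for LCN2. The order of MUC1 and MUC20 in the control therefore rests on the length used, which the counting intervals do not cover. The same holds for the place of AGR2 relative to MUC20 and LCN2 in the targeting libraries. In the control the order began with WFDC2 at a normalized count of 629 per kb, MUC20 at 124, MUC1 at 45.1 and TFF3 at 12.9, followed by AGR2 at 5.37. The counting intervals of TFF3 (7.23 to 21.3) and AGR2 (2.58 to 9.88) overlapped. Below AGR2 came MUC4, LCN2, MUC5B, MUC5AC and MUC16, and each neighbouring pair among these had overlapping intervals. With POU2F3 gRNA the order was WFDC2 at 1657 per kb, MUC1 at 137, MUC20 at 81.5, AGR2 at 46.3 and LCN2 at 30.7. There the intervals of AGR2 (37.6 to 56.4) and LCN2 (20.8 to 43.6) overlapped. With COLCA2 guide 1 LCN2 stood at 53.8 per kb, below MUC20 at 82.1 and AGR2 at 67.1, with overlapping intervals (39.1 to 72.2 for LCN2, 71.7 to 93.5 for MUC20 and 55.4 to 80.5 for AGR2). With guide 2 it stood at 83.2 (63.5 to 107), above MUC20 at 58.3 (49.1 to 68.8) and AGR2 at 55.6 (44.3 to 68.8), though the intervals overlapped. The gel-forming mucins stayed at or below 4.75 per kb in every library.

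The 250 bases before the RefSeq start of transcription (GRCh38.p14) were read for the members with an entry. Those of the 4 members that edgeR called with both targets are printed. Of the 10 members 6 have an entry; MUC5AC, MUC5B, MUC20 and TFF3 are not in the table. Capitals mark matches, on either strand, to ATGCAAAT (the octamer that POU2F factors bind), the NF-kappaB motif (3 G, any 5 bases, 2 C), TTNNGNAA (C/EBP), TGANTCA (AP-1) and TGTTTAC (FOXA), and overlapping matches merge. The windows are chr9:128149203-128149452 on the plus strand for LCN2, chr7:16805000-16805249 on the minus strand for AGR2, chr1:155192916-155193165 on the minus strand for MUC1 and chr20:45469503-45469752 on the plus strand for WFDC2.
LCN2: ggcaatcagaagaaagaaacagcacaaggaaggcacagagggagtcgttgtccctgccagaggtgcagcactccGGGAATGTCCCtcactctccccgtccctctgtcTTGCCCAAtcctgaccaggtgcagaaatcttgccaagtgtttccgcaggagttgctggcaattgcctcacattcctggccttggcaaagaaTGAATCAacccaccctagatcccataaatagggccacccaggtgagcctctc
AGR2: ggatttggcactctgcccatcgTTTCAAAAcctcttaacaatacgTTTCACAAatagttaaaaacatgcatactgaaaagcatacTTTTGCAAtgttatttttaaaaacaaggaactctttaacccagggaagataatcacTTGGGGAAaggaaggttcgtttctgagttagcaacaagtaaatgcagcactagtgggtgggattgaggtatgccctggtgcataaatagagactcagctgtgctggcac
MUC1: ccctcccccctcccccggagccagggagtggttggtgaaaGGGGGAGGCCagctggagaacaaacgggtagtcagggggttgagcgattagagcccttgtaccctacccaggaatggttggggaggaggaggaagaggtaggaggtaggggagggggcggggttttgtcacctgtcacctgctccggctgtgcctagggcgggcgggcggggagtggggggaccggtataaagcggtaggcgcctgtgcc
WFDC2: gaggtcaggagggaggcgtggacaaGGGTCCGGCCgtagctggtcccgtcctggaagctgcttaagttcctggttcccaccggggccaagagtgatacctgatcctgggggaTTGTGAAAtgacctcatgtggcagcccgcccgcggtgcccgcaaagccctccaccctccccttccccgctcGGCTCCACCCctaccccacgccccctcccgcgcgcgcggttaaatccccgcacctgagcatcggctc
The LCN2 window holds GGGAATGTCC, 176 bases before the start, which overlaps a second match to the same motif on the other strand, a C/EBP match, TTGCCCAA, at 143 bases and an AP-1 match, TGAATCA, at 52 bases. The AGR2 window holds 4 matches to the C/EBP letters and none to the others. MUC1 has 1 NF-kappaB match and WFDC2 has 2, with 1 C/EBP match. None of the 4 windows holds an octamer. Of the members not printed, MUC4, which was not called, has 2 NF-kappaB matches. MUC16 has 2 NF-kappaB matches, 1 C/EBP match and 1 AP-1 match in its second entry, and none in its first. The matches are thus not particular to the 4 members printed, and their part in the values was not tested. The windows of LCN2 and AGR2 lie wholly inside the GENCODE genes, and those of WFDC2 and, by its last base, MUC1 in part, so they may hold transcribed sequence. Over the 35116 RefSeq windows of the same length, 54.4% hold the NF-kappaB letters, 33.2% the C/EBP letters, 6.57% the AP-1 letters, 2.98% the FOXA letters and 1.63% the octamer, so a match to the first pair of motifs is common.

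The closest relatives of the non-mucin members were then examined. This list and those that follow were chosen with earlier results of these data known, so their counts and medians are descriptions. SLPI, an inhibitor of neutrophil elastase, and PI3 (elafin), another elastase inhibitor, share the whey acidic protein fold of WFDC2 and lie on chromosome 20, SLPI 215141 bp and PI3 293161 bp from WFDC2. SLPI had a normalized count of 15.3 in the control, 302 with POU2F3 gRNA and 687 and 871 with COLCA2 guides 1 and 2. PI3 had 4.77, 97.4, 224 and 294 in the same order. Both ratios were above that of WFDC2: the SLPI ratio was 19.8 with POU2F3 gRNA, 45.0 (27.5 to 79.2) with COLCA2 guide 1 and 57.0 with guide 2, and the PI3 ratio was 20.4, 46.9 (19.8 to 146) and 61.6. Both were also called lower with POU2F3 gRNA than with both COLCA2 guides, by log2 differences of -1.18 and -1.53 for SLPI and -1.19 and -1.58 for PI3. The adjusted p of that difference in edgeR's test was 0.061 for SLPI and 0.131 for PI3. Of the 16 relatives, 5 passed the minimum, SLPI and PI3 only through the libraries in which they were high, so the count and median of the 5 are descriptions. Called higher were 3 with POU2F3 gRNA (SLPI, PI3 and, at 2.39-fold, PTGDS), beside 6.73% of all genes, and 2 with COLCA2 gRNA, beside 5.79%. EPPIN and WFDC1, also past the minimum, were not called. EPPIN was below the control, at ratios of 0.659 with POU2F3 gRNA and 0.522 and 0.521 with COLCA2 guides 1 and 2. WFDC1 had log2 ratios of 0.28, -0.16 and -0.04 in the same order. WFDC5, WFDC12 and WFDC13 were listed at 0 in the 4 libraries. The 5 had a median log2 ratio of 1.22 with POU2F3 gRNA and 0.70 for COLCA2.

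Of 11 listed inducers, receptors and partners of LCN2, 10 passed the minimum, and the same 5 of the 10 were called higher with POU2F3 gRNA and with both COLCA2 guides, beside 6.73% and 5.79% of all genes: CEBPB and CEBPD, C/EBP transcription factors of the acute-phase response, NFKBIZ, a nuclear co-factor of NF-kappaB, RELB, an NF-kappaB subunit, and NFKBIA, its feedback inhibitor. CEBPB had a normalized count of 928 in the control, 3464 with POU2F3 gRNA and 3592 and 3808 with COLCA2 guides 1 and 2. NFKBIZ had 230, 836, 881 and 876. The log2 ratio averaged over the COLCA2 guides was 1.99 ± 0.059 for CEBPB, 1.63 ± 0.11 for CEBPD, 1.93 ± 0.0059 for NFKBIZ, 1.54 ± 0.0019 for RELB and 1.17 ± 0.056 for NFKBIA (SD, n = 2). With POU2F3 gRNA it was 1.90, 1.73, 1.86, 1.10 and 1.03 in that order. The NF-kappaB subunits NFKB1, RELA and NFKB2 were not called at 2-fold, with log2 ratios of 0.10, 0.37 and 0.55 with POU2F3 gRNA. For COLCA2 (mean of the guides) their log2 ratios were 0.45, 0.32 and 0.89. edgeR's test called 6 of the 10 higher with POU2F3 gRNA, beside 8.45% of all genes, and 7 with COLCA2 gRNA, beside 11.4%. NFKB2 was among them both times (adjusted p = 0.027 and 0.0020), and NFKB1 with COLCA2 gRNA (adjusted p = 0.029). The 10 had a median log2 ratio of 0.79 with POU2F3 gRNA and 1.03 for COLCA2. LRP2 (megalin), an uptake receptor for LCN2 that is named because it was the 1 gene of the list called lower, had a normalized count of 98.4 in the control and 120 with POU2F3 gRNA, but 34.2 and 18.8 with COLCA2 guides 1 and 2. It was called lower with COLCA2 gRNA and higher with POU2F3 gRNA than with both guides. The other receptor, SLC22A17, had log2 ratios of 0.20 to 0.29.

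Of 17 listed regulators of goblet and secretory cells, 12 passed the minimum. At 2-fold, 4 of the 12 were called higher and 1 lower with POU2F3 gRNA, beside 6.73% and 3.05% of all genes. With both COLCA2 guides 2 were called higher and 1 lower, beside 5.79% and 2.02%. ELF3 and KLF5, epithelial transcription factors, were called higher with both targets, and FOXA1, a pioneer factor of airway and gut epithelium, was called lower. ELF3 had a normalized count of 424 in the control, 1907 with POU2F3 gRNA and 2702 and 2978 with COLCA2 guides 1 and 2. KLF5 had 649, 2471, 2521 and 2519. FOXA1 had 2953, 1032, 1012 and 1026, so the 3 targeting libraries were nearly level. SPDEF, the master regulator of goblet cells, had 7 to 17 reads per library and stayed under the minimum. SOX2 and CREB3L1 were also called higher with POU2F3 gRNA and not with both COLCA2 guides. They are named because the count is small. CREB3L1 passed the minimum only through the libraries in which it was high. With POU2F3 gRNA edgeR's test did not call CREB3L1 (adjusted p = 0.351). SOX2 stood at 378 with POU2F3 gRNA against 142 in the control and 156 and 151 with the COLCA2 guides, and was called higher with POU2F3 gRNA than with both of them. edgeR's test called 4 of the 12 higher and 2 lower with POU2F3 gRNA, beside 8.45% and 3.98% of all genes. With COLCA2 gRNA it called 3 higher and 2 lower, beside 11.4% and 7.51%. For both targets GATA6 was among those higher, with log2 ratios of 0.84 with POU2F3 gRNA and 0.57 for COLCA2. EHF was among those lower for both, with -0.54 and -0.59. The 12 had a median log2 ratio of 0.12 with POU2F3 gRNA and 0.27 for COLCA2.

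Of 29 listed genes that fold and glycosylate mucins 24 passed the minimum. At 2-fold, 1 of the 24 was called higher and 1 lower with POU2F3 gRNA, and likewise for COLCA2, beside 6.73% and 3.05% of all genes for POU2F3 and 5.79% and 2.02% for COLCA2. edgeR's test, which has no fold threshold, called 3 higher and 1 lower with POU2F3 gRNA, beside 8.45% and 3.98% of all genes. It called 5 higher and 1 lower with COLCA2 gRNA, beside 11.4% and 7.51%. Those higher were GALNT2, GALNT10 and GCNT1 for both targets, and P4HB and GALNT6 for COLCA2; they were looked up after their values were seen. GALNT14, one of the enzymes that start O-glycosylation, was called lower in the 3 targeting libraries, from a normalized count of 3328 in the control to 959 with POU2F3 gRNA and 1532 and 1276 with COLCA2 guides 1 and 2. GALNT2, of the same family, was called higher with COLCA2 gRNA (mean log2 ratio 1.08 ± 0.019, SD, n = 2) and had 0.87 with POU2F3 gRNA. GALNT5 was called higher with POU2F3 gRNA from 14 to 44 reads. It passed the minimum only through the libraries in which it was high, and edgeR's test did not call it there (adjusted p = 0.216). The 24 had a median log2 ratio of 0.13 with POU2F3 gRNA and 0.17 for COLCA2.

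Among 17 other mucins, 5 passed the minimum and 0 were at least 2-fold higher with either target, beside 6.73% of all genes with POU2F3 gRNA and 5.79% with both COLCA2 guides. edgeR's test called 2 of the 5 higher with POU2F3 gRNA, MCAM (adjusted p = 0.013) and CD164 (adjusted p = 0.044), beside 8.45% of all genes. With COLCA2 gRNA it called these and MUC13 (adjusted p = 0.0019, 0.018 and 0.016), beside 11.4%. MCAM, an adhesion molecule, had a normalized count of 2552 in the control and 3756, 4367 and 4275 in the targeting libraries. MUC13, a membrane mucin of the gut, had a normalized count of 283 in the control, 320 with POU2F3 gRNA and 517 and 483 with COLCA2 guides 1 and 2, an average log2 ratio of 0.82 ± 0.069 (SD, n = 2) with the COLCA2 guides. MUC3A had log2 ratios of 0.07 to 0.22. OVGP1 was called lower with POU2F3 gRNA, with a log2 ratio of -1.10. MUC7, a salivary mucin under the minimum, had 24 reads in the control, 2 with POU2F3 gRNA and 8 and 1 with COLCA2 guides 1 and 2. The goblet cell mucin of the gut, MUC2, had at most 4 reads. The 5 had a median log2 ratio of 0.18 with POU2F3 gRNA and 0.56 for COLCA2.

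**Figure D4:**
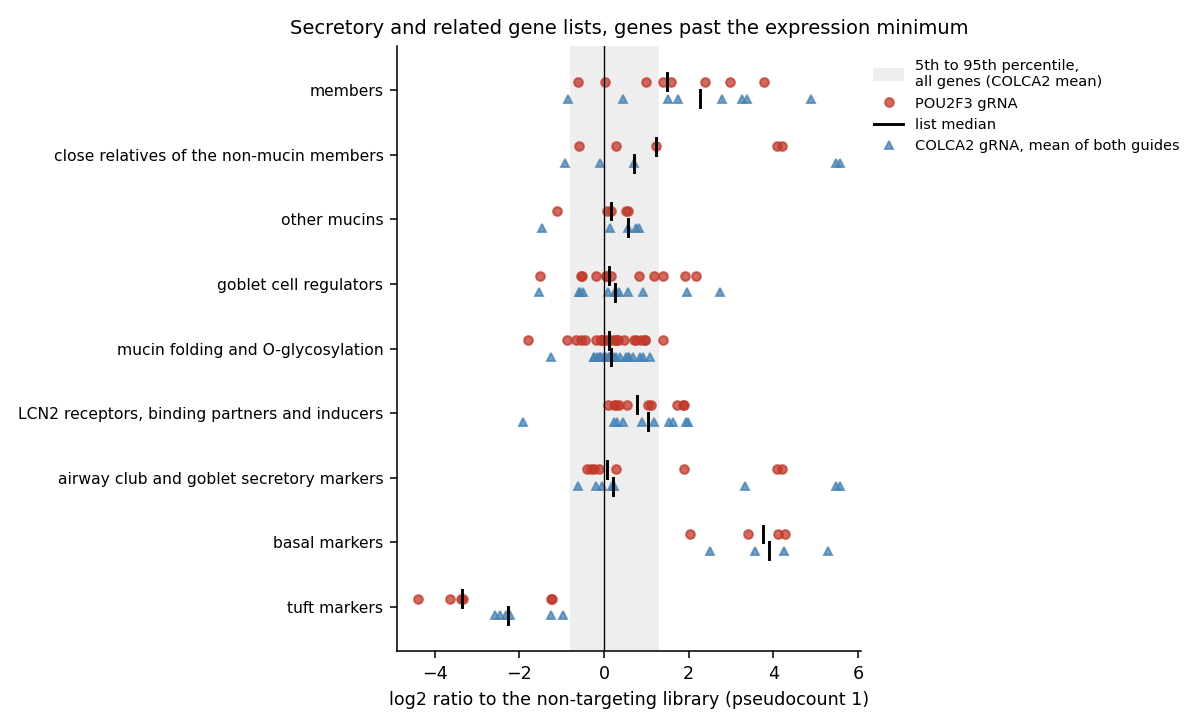
Log2 ratio to the control of the genes past the expression minimum, by list, with POU2F3 gRNA (circles) and as the mean of the COLCA2 guides (triangles); black bars are list medians and the grey band spans the 5th to 95th percentile of all genes. SLPI and PI3 lie furthest right among the relatives, the glycosylation list centres near 0, and the basal and tuft markers lie on opposite sides. The tuft markers include POU2F3, itself a target.

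Of the markers that define airway secretory cells, some were at 0 and others were low. SCGB1A1, the club cell secretoglobin, and BPIFA1 were listed at 0 in the 4 libraries, and SCGB3A1 had 2 reads in the control and 0 in the others. The summed normalized count of the 6 defining club and goblet markers was 57.3 in the control, 60.4 with POU2F3 gRNA and 69.5 and 56.5 with COLCA2 guides 1 and 2. Of the 6, 2 passed the minimum: SCGB3A2, another secretoglobin, with a normalized count of 24.8 in the control and 30.2, 40.4 and 21.2 in the targeting libraries, and BPIFB1 with 20.1, 15.9, 21.8 and 24.7. Neither was called at 2-fold or by edgeR's test with POU2F3 or COLCA2 gRNA. In the wider list of 21 club and goblet markers 8 passed the minimum. SLPI, PI3 and CLCA2, which passed it only through the targeting libraries, were called higher with both targets, beside 6.73% and 5.79% of all genes. edgeR's test called 2 of the 8 higher with POU2F3 gRNA, beside 8.45%, and 3 with COLCA2 gRNA, beside 11.4%. It did not call CLCA2 with POU2F3 gRNA (adjusted p = 0.137). SLPI and PI3 are also in the list of relatives above. The other 5 were not called, and the 8 had a median log2 ratio of 0.072 with POU2F3 gRNA and 0.22 for COLCA2. The members are therefore described here as genes and not as a secretory cell state.

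Markers of other airway cells did not all move one way: the basal list rose, and the tuft and ionocyte lists fell. Of 5 basal cell markers 4 passed the minimum, KRT14 only through the targeting libraries. TP63, KRT5, KRT14 and KRT15 were called higher with both targets, beside 6.73% of all genes with POU2F3 gRNA and 5.79% with both COLCA2 guides. The summed normalized count of the basal list went from 419 in the control to 6558 with POU2F3 gRNA and 8501 and 10100 with COLCA2 guides 1 and 2. The tuft list of 7 went from 46213 to 10136, 15142 and 11343, with 6 members past the minimum. All 6 were called lower with POU2F3 gRNA and 5 with both COLCA2 guides, beside 3.05% and 2.02% of all genes. POU2F3, itself a target, is among the 6 and held 14602, 1449, 3677 and 2351 of these sums. Its fall with POU2F3 gRNA is that of the target and not separate evidence on the list. Of 7 ciliated markers 6 passed, and FOXJ1 alone was called, higher with both targets, beside the same 6.73% and 5.79%. The list summed to 423, 557, 590 and 554, of which FOXJ1 held 43.0, 180, 196 and 226. The 3 ionocyte markers summed to 1730, 337, 501 and 369, nearly all of it FOXI1. Of the neuroendocrine markers, INSM1 was called lower for both targets and CHGA had no more than 3 reads. The alveolar list summed to 176 to 197, and the blood, endothelial and fibroblast markers to 1036 to 1218. The part of these shifts in the members' values was not tested. In bulk RNA fewer cells of a type and less RNA per cell cannot be told apart.

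For the 5 members called higher in the 3 targeting libraries, the nearest genes by Euclidean distance over the 3 log2 ratios were sought among 12159 genes with a mean of at least 100. MUC1 was closest to PIM1 (distance 0.12), CYP1B1 and PTGER2. WFDC2 was closest to IFI44 (0.052), PDLIM5 and TGIF1. AGR2 was closest to TGFB2 (0.25), IGFBP7 and PHLDB2, and LCN2 to TAGLN (0.48), S100A14 and CCDC80. MUC5B had no near neighbour beyond AL135905.2 (0.59), since PDGFRB and COL5A1 lay at 1.64 and 1.69. The distances rest on 3 ratios that share 1 control library. For members with few control reads they also rest on the pseudocount. The mean LCN2 log2 ratio for COLCA2 was 4.88 with a pseudocount of 1, 5.75 with 0.1 and 2.61 with 10. These shifts exceed its distance of 0.48.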

How the data were processed

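Poly(A) RNA of 4 NCI-H1048 libraries was analysed from the authors' deposited tables, 1 per library. The deposited columns hold normalized counts, a linear signal with 1 value per gene, per the file headers. The submitters' processing notes name Salmon, DESeq2 and the build hg38; versions, annotation, strand use and the way the factor was chosen are not given in the sources used here. All values (100%) fell on whole multiples of a library's smallest step, within 0.01 reads, and were turned back into reads; whether estimated counts had been rounded first is not given.

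Rows of the same symbol were summed (38145 rows, 35979 symbols, of which 1149 had several rows), and 14940 symbols with a mean of at least 20 were kept. Ratios to the non-targeting library were taken on the log2 scale after adding a pseudocount of 1, and called at 2-fold. As an alternative, edgeR 4.0.16 (quasi-likelihood, TMM, Benjamini-Hochberg at 0.05, 3 groups) was run on the recovered reads; it called 1263 genes higher and 595 lower for POU2F3, and 1709 and 1122 for COLCA2. Counts for 14940 genes were also simulated. In the POU2F3 comparison the 2-fold rule found 98% of 4-fold changes, and 274 genes without a change passed it. When each COLCA2 guide had to pass, 98% were found and 74 such genes passed. edgeR's test found 85% for POU2F3 and 92% for COLCA2, with 5 and 8 false calls. Spread within a group is known from the COLCA2 guides alone. These figures therefore cannot show the spread between cultures with POU2F3 or non-targeting gRNA. They pool all genes and do not separately describe members with few control reads. Positions and transcript lengths come from GENCODE release 29 (GRCh38), matched by symbol.

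The members and lists (other mucins, goblet regulators, folding and glycosylation, relatives, LCN2 inducers, club and goblet and other cell type markers) came from general knowledge and were chosen with earlier results of these data known. Named genes are the members, the targets, up to 4 genes per list and direction called in the 3 targeting libraries with the largest smallest change, markers at 0 and the 3 nearest patterns of each member called in all 3; other genes were named after their values were seen. Whether the libraries came from separate cultures is not stated, so the spread between guides holds guide, culture and library differences together. The summed level of the neuroendocrine list is not reported here.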

Additional observations from a re-analysis of the deposited data

How the results depend on the processing

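No paired analysis was possible because POU2F3 gRNA and non-targeting gRNA have 1 library each and so no second pair. No called log2 ratio of a member changed sign under any of the other pseudocounts, scalings, expression minimums or row choices, or without either COLCA2 guide. Another fold threshold or minimum changes the counts by construction. At 4-fold, 3 members were higher with POU2F3 gRNA (MUC5B, AGR2 and LCN2) and 3 with both COLCA2 guides (MUC16, AGR2 and LCN2). With a minimum mean of 100, 2 were higher with either target (MUC1 and WFDC2) and 0 were lower in the direct comparison of POU2F3 with COLCA2 gRNA. At 1.5-fold, MUC20 was the 1 member lower with POU2F3 gRNA and the 1 with COLCA2 gRNA, and 2 were lower in the direct comparison (MUC16 and LCN2). Without a minimum, 2 were lower with POU2F3 gRNA (MUC5AC and TFF3), 1 with COLCA2 gRNA (TFF3) and 2 in the direct comparison (MUC16 and MUC5AC). With 1 COLCA2 guide left out, 0 to 1 members were lower with COLCA2 gRNA (MUC20 without gRNA 1), and 2 in the direct comparison either way (LCN2 joined without gRNA 1 and MUC5B without gRNA 2). In edgeR's test 0 were lower in the direct comparison, 4 were higher with POU2F3 gRNA and 5 with COLCA2 gRNA. With a pseudocount of 10, MUC5B was no longer called with COLCA2 gRNA and the mean LCN2 log2 ratio there was 2.61, against 4.88 with 1 and 5.75 with 0.1; low control counts decide that value.

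Over all genes, calls with POU2F3 gRNA went from 1005 higher and 455 lower to 2551 and 1639 without a minimum, 631 and 233 with a minimum mean of 100, 1822 and 1149 at 1.5-fold and 365 and 113 at 4-fold. With COLCA2 gRNA they went from 865 and 302 to 1857 and 1028, a lower count of 177, then 1451 and 901 and 346 and 44, in the same order, with 1709 and 1122 in edgeR's test and 544 and 477 lower without gRNA 1 and gRNA 2. In the direct comparison they went from 66 and 138 to 812 and 791, 11 and 62, 287 and 373 and 12 and 27, with 16 and 35 in edgeR's test, 37 higher with a pseudocount of 10, and 205 and 268 without gRNA 1 or 229 and 231 without gRNA 2. The scalings moved no median of all genes by more than 0.1 on the log2 scale. Depth limits MUC5AC, TFF3, MUC4, and the size of the ratios of LCN2, MUC16 and MUC5B.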
